A study of Mus musculus with 7 samples.

Results

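Mest, Nnat and Meg3 are imprinted genes, and 16 cytosine sites of 27896 in the series lay at them on the mouse build mm10. A site was taken if it lay in a window that held the whole RefSeq gene and at most 1534 bases beyond either end. Methylation was measured by reduced representation bisulfite sequencing, in which restriction enzymes enrich CpG-rich fragments and bisulfite treatment lets each read report whether a cytosine was methylated. The cells were J1 mouse embryonic stem cells grown on gelatin in serum with leukemia inhibitory factor. Wild-type cells and cells lacking Uhrf1 (Uhrf1-/-) had 2 libraries each. Both rescues were made in Uhrf1-/- cells and came from single hygromycin-resistant colonies with tagged human UHRF1, either wild type or with K667R, K668R and K670R (3KR), 1 library each. The last library came from J1 cells with a stable knockdown of Mof.

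In imprinting, a methylation mark set in the germ line of one parent stays on that parent's copy of a gene, and the other copy is unmethylated. Mest encodes a hydrolase-like membrane protein and Nnat a small membrane proteolipid, and both are expressed from the paternal copy. Meg3 is a long noncoding RNA expressed from the maternal copy of the Dlk1-Dio3 region. Behind the replication fork, UHRF1 recognises DNA methylated on a single strand and brings in DNMT1, the enzyme that copies the mark, so an imprint needs both to persist through cell division. MOF (Kat8) adds acetyl groups to lysines. The series title names acetylation of UHRF1 by MOF and the upkeep of methylation as its subject. The tables do not separate the parental copies, so every value below is a share of reads from both.

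The table with the rescues (rescue table) held 3 Mest sites, 1 Nnat site and 0 Meg3 sites of its 18189 sites in 6 libraries. The table with the knockdown (knockdown table) held 0 Mest, 4 Nnat and 9 Meg3 sites of its 21989 sites in 3 libraries. One Nnat site was in both, with the same wild-type reads. Meg3 therefore has no value in Uhrf1-/- or rescue cells, and Mest has none in the knockdown. Sites are numbered by position within a gene. The authors' tables list no site under 5 reads in any of their libraries, and at 5 reads a single read moves the level by 20 percentage points.

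The 3 Mest sites lay at chr6:30733753, 30733760 and 30733762 on the plus strand, inside the gene (30733506 to 30748466). They were 247 to 256 bases after the upstream RefSeq transcript start and 4288 to 4297 bases before the next start, at 30738050. The 4 Nnat sites lay at chr2:157562205, 157562211, 157562287 and 157562301, on the minus strand. They were 2127 to 2223 bases after the start of Nnat (157560078 to 157562525), and also inside Blcap (157556362 to 157566361), the gene that contains Nnat. The 9 Meg3 sites ran from chr12:109546333 to 109546608 on the minus strand, inside the gene (109540996 to 109571729). They were 5337 to 5612 bases after its first RefSeq start and 935 to 1210 bases after its second. The authors' deposited table classed all of these sites as promoter, by transcript starts that need not be those of RefSeq. At Nnat the start it used was on the minus strand, 147 to 243 bases away, while Nnat itself runs on the plus strand. At Meg3 the starts used by the authors' deposited table were inside the gene, and the sites ran from -58 to 165 bases from them.

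None of the measured sites lay in the 300-base windows around the RefSeq starts of these genes, which run from 250 bases before to 50 bases after a start. The windows are shown so that the sequence at the RefSeq starts can be set beside the measured places. All are plus-strand sequences from RefSeq, GRCm38.p6 (the same build as mm10), with each CpG dinucleotide in capitals. They are Mest upstream (chr6:30733256-30733555), Mest downstream (chr6:30737800-30738099), Nnat (chr2:157559828-157560127), Meg3 first (chr12:109540746-109541045) and Meg3 second (chr12:109545148-109545447).
Mest upstream: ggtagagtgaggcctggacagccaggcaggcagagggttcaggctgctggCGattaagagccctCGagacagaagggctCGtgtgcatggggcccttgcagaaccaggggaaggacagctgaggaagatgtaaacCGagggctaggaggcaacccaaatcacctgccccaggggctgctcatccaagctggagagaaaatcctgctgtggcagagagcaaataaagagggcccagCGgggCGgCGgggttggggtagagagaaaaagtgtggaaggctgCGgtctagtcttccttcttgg
Mest downstream: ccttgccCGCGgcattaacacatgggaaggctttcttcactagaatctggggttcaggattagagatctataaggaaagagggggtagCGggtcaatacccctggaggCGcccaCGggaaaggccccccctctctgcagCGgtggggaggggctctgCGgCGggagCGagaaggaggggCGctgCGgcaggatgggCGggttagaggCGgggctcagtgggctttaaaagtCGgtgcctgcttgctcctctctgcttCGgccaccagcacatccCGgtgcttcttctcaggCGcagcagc
Nnat: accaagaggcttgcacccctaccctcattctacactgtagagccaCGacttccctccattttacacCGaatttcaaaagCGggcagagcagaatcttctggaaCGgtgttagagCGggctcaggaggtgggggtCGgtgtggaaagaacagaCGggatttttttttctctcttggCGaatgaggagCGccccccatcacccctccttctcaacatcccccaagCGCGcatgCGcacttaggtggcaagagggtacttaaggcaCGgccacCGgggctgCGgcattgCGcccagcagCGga
Meg3 first: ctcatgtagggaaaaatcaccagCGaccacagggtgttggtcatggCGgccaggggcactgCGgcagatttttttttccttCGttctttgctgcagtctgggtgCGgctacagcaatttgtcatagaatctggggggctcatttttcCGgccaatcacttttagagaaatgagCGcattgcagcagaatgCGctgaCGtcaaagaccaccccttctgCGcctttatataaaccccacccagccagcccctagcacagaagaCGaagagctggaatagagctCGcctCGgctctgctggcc
Meg3 second: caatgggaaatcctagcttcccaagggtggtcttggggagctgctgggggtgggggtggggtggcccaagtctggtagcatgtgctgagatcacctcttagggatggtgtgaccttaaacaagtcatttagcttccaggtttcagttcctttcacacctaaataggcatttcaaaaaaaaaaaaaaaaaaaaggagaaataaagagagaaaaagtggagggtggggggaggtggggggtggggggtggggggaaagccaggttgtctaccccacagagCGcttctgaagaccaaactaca

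The motif counted was CG, which reads the same on both strands. The Mest upstream window held 8 CpGs, which 48.6% of 32851 RefSeq promoter windows of the same length matched or exceeded. The Mest downstream and Nnat windows held 17 each (31.4% of promoters held as many), and Meg3 first held 13 (37.9%). The Meg3 second window held 1, and 94.6% of promoters held at least 1. The measured Mest sites were thus beside the CpG-poorer of its starts.

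In wild-type cells Mest and Nnat lay near the middle of the scale. The mean of both wild-type libraries was between 30% and 70% at 3 of 3 Mest sites and at 4 of 4 Nnat sites. That range held 18.6% of all sites in the rescue table and 18.9% in the knockdown table. At Meg3 only 4 of 9 sites were in that range, the site means ran from 13.8% to 90.0%, and 3 sites were over 80%. The 3 Mest sites lay within 9 bases, with 6 and 7 reads each in the wild-type libraries. Neighbouring sites share reads, so they are not independent observations. At Mest site 1 the wild-type libraries stood at 33.3% and 100%, and at Mest site 3 at 66.7% and 28.6%. Both means therefore lie between unlike levels. The sites of these genes need not lie in their imprinted control regions.

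The question of the first comparison was how far methylation fell without Uhrf1. Wild-type cells averaged 50.8% ± 8.98 at Mest and Uhrf1-/- cells 17.5% ± 9 (SD, n = 2), a difference of -33.3 points. The Nnat site averaged 50.3% ± 13.8 and 10.5% ± 14.9 (SD, n = 2), a difference of -39.7 points. Over all 18189 sites the means were 49.1% and 9.59%, a difference of -39.6 points. As a share of the wild-type level, Uhrf1-/- kept 34.4% at Mest, 20.9% at Nnat and 19.5% over all sites. No site of either gene passed the test, although each mean was lower.

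At Mest site 1 the wild-type libraries had 2 of 6 and 7 of 7 reads methylated (33.3% and 100%), and the Uhrf1-/- libraries 3 of 9 and 2 of 10 (33.3% and 20%). The first library of each genotype shared a level there, so the groups touched. At Mest site 2 the counts were 2 of 6 and 3 of 7 in wild type (33.3% and 42.9%), and 0 of 10 and 2 of 11 in Uhrf1-/- (0% and 18.2%). Both Uhrf1-/- libraries were below both wild-type libraries at that site. At Mest site 3 the counts were 4 of 6 and 2 of 7 in wild type (66.7% and 28.6%), and 0 of 5 and 2 of 6 in Uhrf1-/- (0% and 33.3%). The groups overlapped there, and the wild-type libraries were further apart than the group means.

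Nnat site 2 was read more deeply. Its wild-type libraries had 15 of 37 and 18 of 30 reads methylated (40.5% and 60%), and its Uhrf1-/- libraries 4 of 19 and 0 of 5 (21.1% and 0%). The groups did not overlap, but the second Uhrf1-/- library rested on 5 reads, whose 95% Wilson interval reached 43.4%. Without molecular identifiers on the reads, such an interval holds counting error and nothing else.

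In the quasi-likelihood test of edgeR, run on counts of methylated and unmethylated reads, 0 of 4 sites were called lower at an adjusted p under 0.05 and 20 points, against 30.4% of all sites tested. The edgeR adjusted p was 0.379, 0.412 and 0.520 at the Mest sites and 0.272 at the Nnat site, and 0 of 4 had an unadjusted p under 0.05. Over the table, 7096 of 14654 tested sites were lower at that unadjusted edgeR p. On a percent scale, limma also called 0 of 4, against 40.7% of all sites it tested. By size alone, all 4 sites (4 of 4) lay 20 points or more below wild type, against 61.5% of all sites. With reads summed over each cluster of neighbouring sites, the edgeR adjusted p was 0.189 for Mest and 0.189 for Nnat, so 0 of 2 clusters were called, against 58.2% of clusters. With limma the Mest cluster was called lower (adjusted p 0.0363) and the Nnat cluster was not (0.0771), against 57.9% of clusters called lower. In the authors' deposited table the q-values for Uhrf1-/- were 0.00956, 0.0264 and 0.0761 at Mest and 0.00248 at Nnat, so 3 of 4 sites were lower at a q-value under 0.05, against 65.7% of all sites. The differences in the authors' deposited table were those of reads pooled within each group.

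**Figure D1:**
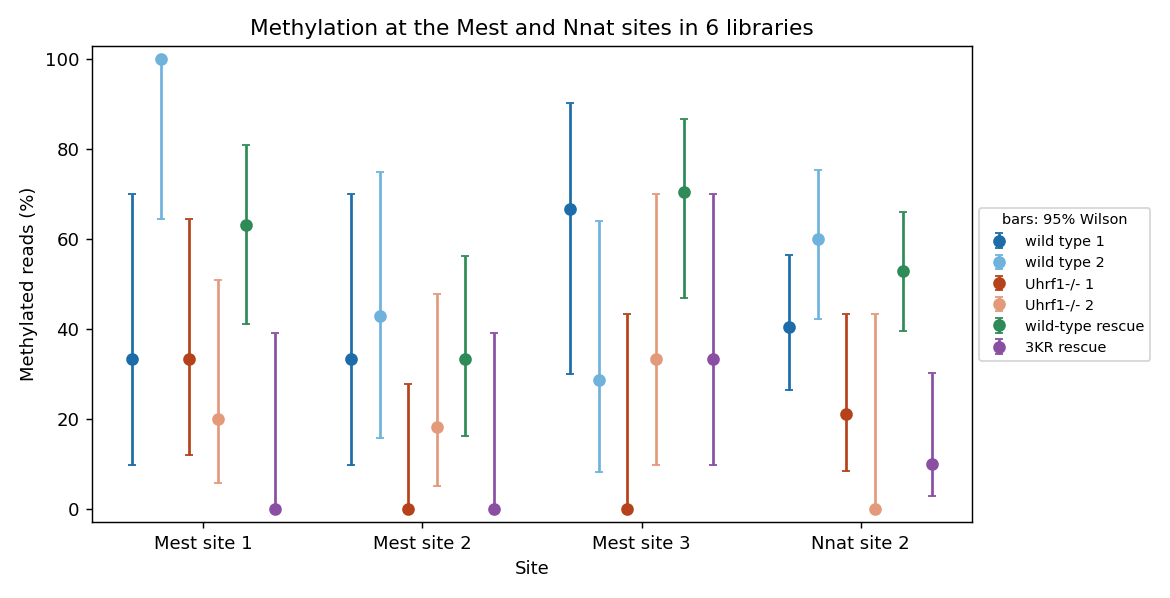
Percent of methylated reads (vertical axis) at the 3 Mest sites and Nnat site 2 in each of the 6 libraries of the rescue table (colours), with 95% Wilson intervals as bars. The wild-type and wild-type rescue points lie above the Uhrf1-/- and 3KR rescue points at Nnat site 2, where the wild-type rescue stands at 52.9% and the 3KR rescue at 10%. At the Mest sites most of the bars overlap.

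The rescues asked whether human UHRF1 restored methylation, and whether the 3 lysines mattered to the level reached. With wild-type human UHRF1, Mest stood at 55.7% and Nnat at 52.9%, both near their wild-type means. With the 3KR protein they stood at 11.1% and 10%, near the Uhrf1-/- means. Each rescue is 1 library from 1 colony, so a difference between colonies cannot be told apart from one between proteins. With a spread taken from the wild-type and Uhrf1-/- libraries, edgeR called none of the 4 sites in any rescue comparison. It called few or no sites of the whole table in them, so this does not set the 4 sites apart.

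In the wild-type rescue 12 of 19, 6 of 18 and 12 of 17 reads were methylated at Mest sites 1 to 3 (63.2%, 33.3% and 70.6%). In the 3KR rescue the counts were 0 of 6, 0 of 6 and 2 of 6 (0%, 0% and 33.3%). The 3KR level was the lower at each Mest site, with few reads behind it. At Nnat site 2 the wild-type rescue had 27 of 51 reads methylated and the 3KR rescue 2 of 20. The 95% Wilson intervals, 39.5% to 65.9% and 2.79% to 30.1%, did not overlap. Pooled over the Mest sites, the wild-type rescue had 30 of 54 (55.6%, 42.4% to 68.0%) and the 3KR rescue 2 of 18 (11.1%, 3.10% to 32.8%). Neighbouring sites share reads, so these pooled intervals are too narrow.

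Against the Uhrf1-/- mean, the wild-type rescue was at least 20 points higher at 4 of 4 sites (60.7% of all sites) and that much lower at 0 of 4 (0.445%). The gains were 36.5, 24.2 and 53.9 points at Mest and 42.4 points at Nnat. The mean gain was 38.2 points at Mest and 35.7 points over all sites. Against the wild-type rescue, the 3KR rescue was at least 20 points lower at 4 of 4 sites (55.6% of all sites) and that much higher at 0 of 4 (1.92%), with differences of -63.2, -33.3 and -37.3 points at Mest and -42.9 points at Nnat. The mean difference was -44.6 points at Mest, -42.9 at Nnat and -30.1 over all sites. The shares of all sites show that both movements were common in the table.

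The 3KR rescue differed from the Uhrf1-/- mean by -26.7, -9.09 and 16.7 points at the Mest sites and by -0.526 points at Nnat. That put 1 of 4 sites at least 20 points lower (4.54% of all sites) and 0 of 4 higher (18.3%). On means, the 3KR rescue was -6.36 points from Uhrf1-/- at Mest, -0.526 at Nnat and 5.57 points from it over all sites. Without the first or the second Uhrf1-/- library the difference was -12.7 or 0 points at Mest and 10 or -11.1 points at Nnat, so its direction rests on 1 library. The wild-type rescue was 4.90 points from wild type at Mest, 2.67 at Nnat and -3.88 over all sites. Here too the direction turned with 1 library: without the first or the second wild-type library the difference was -1.45 or 11.2 points at Mest and -7.06 or 12.4 points at Nnat. By size, 0 of 4 sites were lower than wild type (20.1% of all sites) and 1 of 4, Mest site 3, was higher by 23.0 points (11.1%).

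Expressed as a share of the mean lost between wild type and Uhrf1-/-, the wild-type rescue regained 114.7% at Mest, 106.7% at Nnat and 90.2% over all sites. The 3KR rescue regained -19.1%, -1.32% and 14.1%, where a negative share is a level below the Uhrf1-/- mean, with a sign that rests on 1 Uhrf1-/- library as above. These shares use the same Uhrf1-/- and wild-type libraries, so they are not independent of each other. Between the replicate libraries themselves, 2 of 4 sites differed by 20 points or more in wild type (30.7% of all sites) and 2 of 4 in Uhrf1-/- (20.5%).

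Exact two-sided Fisher tests on reads summed per cluster compare single libraries, not conditions, and hold counting error only. In a cluster of several sites, such as Mest, they count neighbouring sites on a read more than once, so p-values there are too small. The Nnat cluster of the rescue table is 1 site. Adjusted over 6287 clusters, the wild-type rescue and the 3KR rescue differed at Mest (exact Fisher adjusted p = 0.00212) and at Nnat (exact Fisher adjusted p = 0.00223), as did 62.3% of all clusters. The wild-type rescue differed from both Uhrf1-/- libraries at Mest (exact Fisher adjusted p = 0.00085 and 0.00904), and at Nnat the exact Fisher adjusted p was 0.0434 against the first and 0.0780 against the second. Of all clusters, 67.7% and 64.8% passed in these comparisons. The 3KR rescue gave an exact Fisher adjusted p of 0.868 or more against each Uhrf1-/- library at both genes. With 18 and 20 reads in the 3KR library these tests do not show that the levels are alike. In the authors' deposited table, the 3KR rescue had q-values of 0.00172, 0.0292 and 0.384 against wild type at Mest and 0.000982 at Nnat (3 of 4 lower at a q-value under 0.05, against 55.5% of all sites), and the wild-type rescue had q-values of 0.274 or more.

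**Figure D2:**
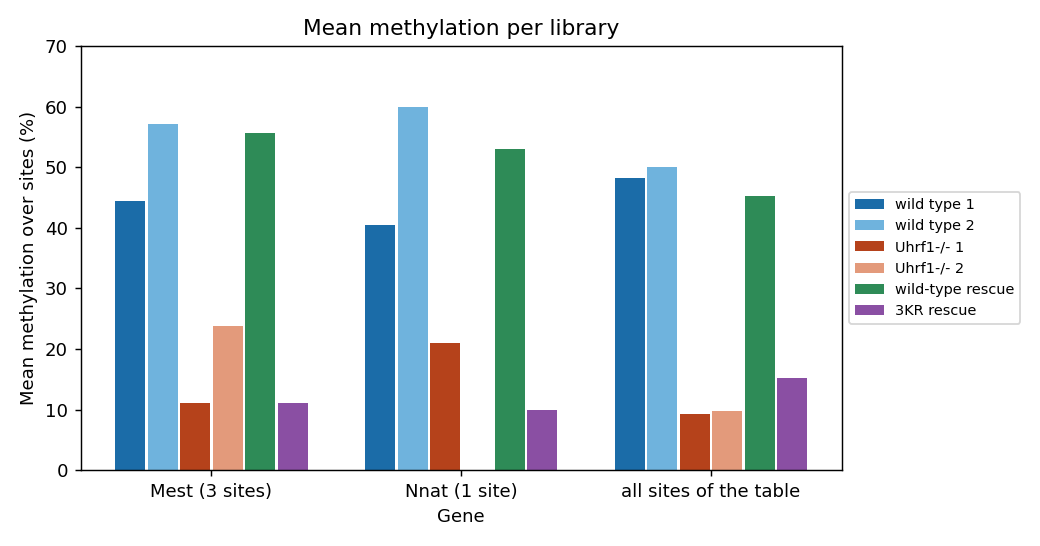
Mean percent methylation over sites (vertical axis, bars from 0) at Mest, Nnat and all sites of the rescue table, for each of the 6 libraries (colours). In all 3 groups of bars the wild-type rescue stands beside wild type, and the 3KR rescue is the nearer to Uhrf1-/-, at 11.1% for Mest, 10% for Nnat and 15.2% over all sites.

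The Mof knockdown asked how methylation stood when the acetyltransferase was reduced. The knockdown was lower on average at both measured genes, and the differences were unequal from site to site. Nnat averaged 49.1% ± 10.4 in wild type (SD, n = 2) and 29.1% in the knockdown, a difference of -20 points. Meg3 averaged 65.8% ± 0.138 (SD, n = 2) and 50%, a difference of -15.9 points. That small SD does not describe single Meg3 sites. There the second wild-type library minus the first ran from -33.3 to 31.5 points, and these gaps cancelled in the mean. All 21989 sites averaged 50.7% and 42.0%, a difference of -8.74 points. The knockdown is 1 library with no spread of its own, and the wild-type libraries are the same as in the rescue table.

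At Nnat site 1, 21 of 37 and 21 of 28 reads were methylated in wild type (56.8% and 75.0%) and 0 of 12 in the knockdown, for which the 95% Wilson interval reached 24.2%. At Nnat site 2, 6 bases away, the counts were 15 of 37 and 18 of 30 (40.5% and 60%) and 4 of 11 (36.4%). The knockdown was below both wild-type libraries at these neighbours, by -65.9 points from their mean at the first and -13.9 at the second. At Nnat site 3 the counts were 13 of 36 and 11 of 25 (36.1% and 44.0%) and 2 of 10 (20%), a difference of -20.1 points. At Nnat site 4 they were 6 of 18 and 7 of 15 (33.3% and 46.7%) and 3 of 5 (60%), a difference of 20 points on 5 reads. The knockdown was thus below both wild-type libraries at 3 of 4 Nnat sites and above both at 1. The share of all sites that stood outside both wild-type libraries was not counted, so this count has no background beside it.

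At Meg3, the first 4 sites spanned 67 bases and a gap of 113 bases parted them from the last 5. This split at the widest gap was chosen after the values were seen. Over the first 4 the wild-type libraries averaged 50% and 59.9% and the knockdown 66.7%, a difference of 11.7 points from the wild-type mean. Over the last 5 they averaged 78.7% and 70.4% and the knockdown 36.6%, a difference of -37.9 points. The knockdown had 34 of 93 reads methylated when summed over the last 5 (95% Wilson interval 27.5% to 46.7%). Each of these sites had 17 to 20 reads in the knockdown. Neighbouring sites share reads, so this interval is too narrow.

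Among the first 4 Meg3 sites, site 1 had 0 of 8 and 8 of 29 reads methylated in wild type (0% and 27.6%) and 2 of 6 in the knockdown (33.3%). Site 2 had 6 of 8 and 13 of 29 (75.0% and 44.8%) and 4 of 6 (66.7%). Site 3 had 4 of 8 and 22 of 27 (50% and 81.5%) and 4 of 6 (66.7%). The knockdown lay between the wild-type libraries at sites 2 and 3 of Meg3. Site 4 had 6 of 8 and 24 of 28 (75.0% and 85.7%) and 5 of 5 (100%). None of these 4 sites differed from the wild-type mean by 20 points, and none had more than 6 reads in the knockdown.

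Among the last 5 Meg3 sites, site 5 had 5 of 5 and 16 of 24 reads methylated in wild type (100% and 66.7%) and 9 of 17 in the knockdown (52.9%). Site 6 had 3 of 5 and 11 of 22 (60% and 50%) and 2 of 17 (11.8%). Site 7, 4 bases further, had 4 of 6 and 16 of 25 (66.7% and 64.0%) and 13 of 19 (68.4%). Sites 6 and 7 thus stood apart in the knockdown while their wild-type levels lay between 50% and 66.7%. Site 8 had 4 of 6 and 21 of 23 (66.7% and 91.3%) and 8 of 20 (40%). Site 9 had 6 of 6 and 20 of 25 (100% and 80%) and 2 of 20 (10%, 95% Wilson interval 2.79% to 30.1%). The knockdown was below both wild-type libraries at 4 of these 5 sites, with differences of -30.4, -43.2, -39.0 and -80 points, and 3.09 points above their mean at site 7. As at Nnat, the share of all sites below both wild-type libraries was not counted.

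**Figure D3:**
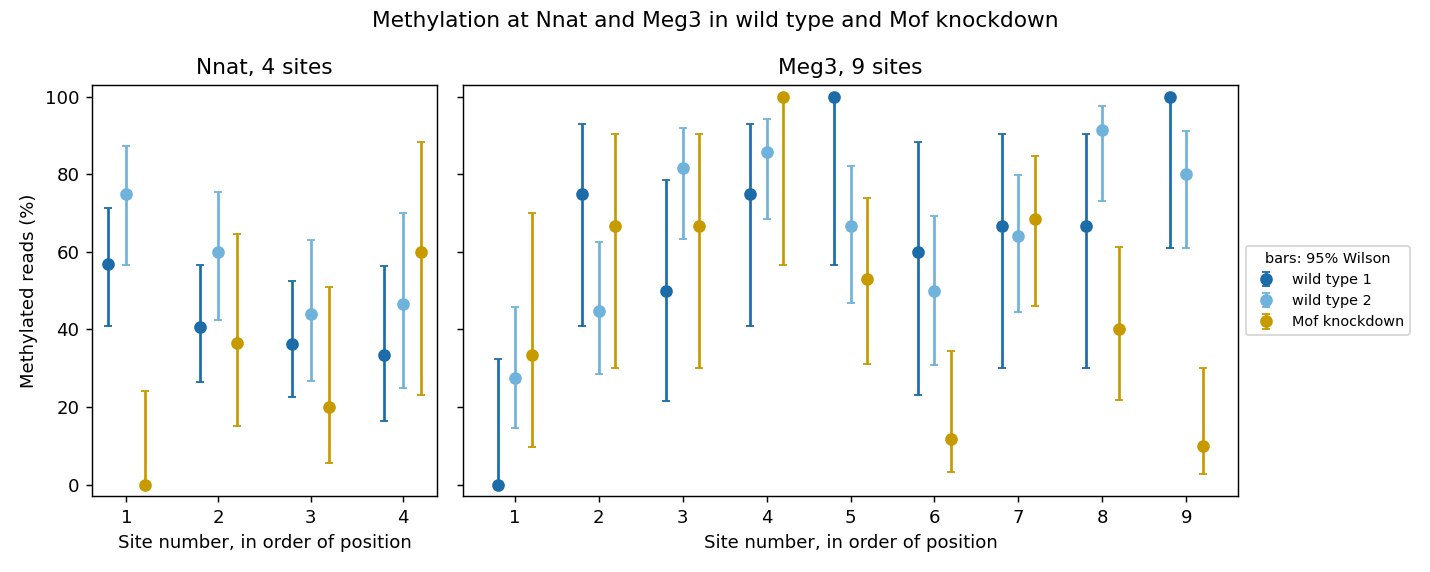
Percent of methylated reads (vertical axis) at the 4 Nnat and 9 Meg3 sites, in order of position, in both wild-type libraries and the Mof knockdown (colours), with 95% Wilson intervals as bars. The knockdown points lie at 0% at Nnat site 1, 11.8% at Meg3 site 6 and 10% at Meg3 site 9, and lie among or above the wild-type points at Meg3 sites 1 to 4 and 7.

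By size, the knockdown was at least 20 points lower at 6 of 13 sites (25.7% of all sites) and that much higher at 1 of 13, Nnat site 4 (7.56%). The median difference was -13.9 points over the 13 sites and 0 over all sites. Between the wild-type libraries, 6 of 13 sites also differed by 20 points or more (30.6% of all sites), 3 in each direction. The widest gap between the wild-type libraries at these 13 sites was -33.3 points. The knockdown differences at Nnat site 1 (-65.9), Meg3 site 9 (-80), Meg3 site 6 (-43.2) and Meg3 site 8 (-39.0) were larger in size. A knockdown difference is taken from the mean of 2 libraries, while the gap is between single libraries. The measures are therefore not the same. When edgeR borrowed the spread of the wild-type libraries, it called no site anywhere in the table. The lack of a call at these 13 sites is therefore no result about these genes.

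On reads summed per cluster, Meg3 was -22.0 and Nnat -26.9 points from wild type, so 2 of 2 clusters passed 20 points (25.8% of clusters were that much lower) and 0 were higher (4.54%). Exact Fisher tests adjusted over 7287 clusters gave 0.00104 for Meg3 and 0.00567 for Nnat against the second wild-type library, where 17.0% of all clusters were under 0.05. Against the first the exact Fisher adjusted p was 0.0818 and 0.184, and 10.3% of all clusters were under 0.05. In the authors' deposited table, 4 of the 13 sites were lower in the knockdown at a q-value under 0.05, against 12.5% of all sites: Meg3 site 9 (8.26e-06), Meg3 site 8 (0.00764), Meg3 site 6 (0.0314) and Nnat site 1 (0.000178). The authors' deposited table gave q-values of 0.345 or more at the others.

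**Figure D4:**
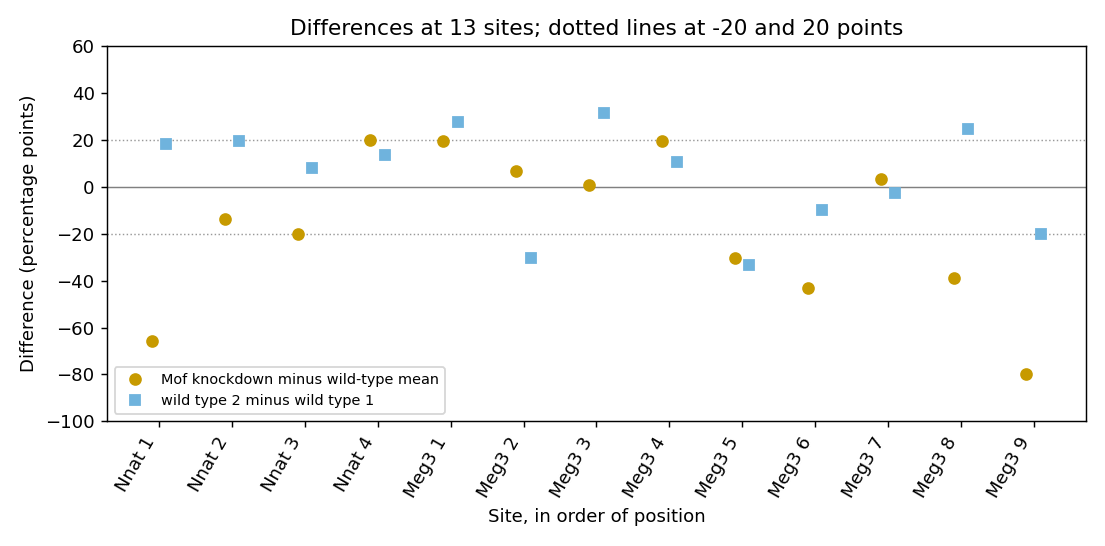
Differences in percentage points (vertical axis) at the 13 sites: the Mof knockdown minus the wild-type mean (circles) beside wild-type library 2 minus library 1 (squares), with dotted lines at 20 points either way. The knockdown circles at Nnat site 1 (-65.9), Meg3 site 6 (-43.2), Meg3 site 8 (-39.0) and Meg3 site 9 (-80) lie below every square. The other circles lie within the range of the squares.

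Other imprinted genes were taken from a list of 61, of which 11 held a site in the rescue table. In Uhrf1-/-, edgeR called 8 of 12 tested clusters of these genes lower and 0 higher, beside 58.2% of all clusters lower. It called 7 of 36 tested sites lower and 0 higher, beside 30.4% of all sites lower. The 7 genes with a lower cluster included Peg10, a retrotransposon-derived gene, whose wild-type mean was 84.0% ± 6.77 and whose Uhrf1-/- mean was 14.1% ± 5.86 (SD, n = 2; edgeR cluster adjusted p = 0.000214). Grb10, an adaptor of insulin and growth factor receptors, averaged 91.3% ± 12.3 and 9.95% ± 6.55 (SD, n = 2; smallest edgeR cluster adjusted p = 3.2e-05). H19, a noncoding RNA, averaged 63.2% ± 10.8 and 8.04% ± 6.94 (SD, n = 2; edgeR cluster adjusted p = 0.00178). Kcnq1, a potassium channel, averaged 54.7% ± 10.9 and 11.7% ± 13 (SD, n = 2; smallest edgeR cluster adjusted p = 0.00175).

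Ppp1r9a, an actin-binding scaffold, averaged 35.4% ± 2.95 in wild type and 7.82% ± 1.11 in Uhrf1-/-, and Cdh15, a cadherin, 43.4% ± 2.42 and 7.63% ± 10.8 (SD, n = 2). Each had a cluster called lower (edgeR adjusted p = 0.00435 and 0.0300). Copg2, which overlaps the end of Mest, was the other gene with a lower cluster, from 2 sites. Trappc9 at 1.93% and Jade1 at 11.1% ± 15.7 (SD, n = 2) in wild type were not called, and Inpp5f was 0% in both groups. From such wild-type means a fall of the 20 points that a call needed was not possible. The absence of a call at Trappc9 and Jade1 therefore does not show that methylation was kept. The Trappc9 cluster had an edgeR adjusted p of 0.0192 and a Uhrf1-/- mean of 0%, and missed a call by size only. Sites were assigned to a gene when they lay in its body or within 1000 bases, so they need not be its imprinted control region.

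In the rescues these genes did not all stand where Mest and Nnat stood. Each rescue is a single library, so these contrasts between genes have no replicate. Peg10 was at 79.5% with wild-type UHRF1 and 62.5% with the 3KR protein, nearer to wild type than to Uhrf1-/- in both. Its 3KR level rested on 32 reads summed over 4 sites, whose levels ran from 25% to 75%. Such sums can count a read more than once. H19 was at 36.9% and 5.49%, Kcnq1 at 37.9% and 9.30%, and Cdh15 at 29.4% and 0%, with the wild-type rescue short of wild type at each. The 0% at Cdh15 rested on 18 reads summed over 3 sites. Grb10 was at 74.4% and 28.4%, and Ppp1r9a at 52.4% and 15.4%. Jade1 was at 58.8% with wild-type UHRF1 and 4.17% with the 3KR protein, and its wild-type mean was 11.1%. Trappc9 was at 1.62% and 1.56%, and Inpp5f at 0% in both.

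Of the listed genes, 10 held 47 sites in the knockdown table, of which 16 were at least 20 points lower (34.0%, beside 25.7% of all sites) and 1 higher (2.13%, beside 7.56%). The mean was below wild type at 8 of the 10 genes, and the mean over all sites was -8.74 points from it. H19 was -27.1, Kcnq1 -24.3 and Ppp1r9a -17.9 points from wild type. Jade1 was -11.1, Gnas, which encodes a stimulatory G protein subunit, -10.3, and Trappc9 -7.97 points from it, while Cdh15 was 7.45 points above. The wild-type libraries themselves (second minus first) lay -15.2 points apart at H19, -15.4 at Kcnq1, -4.76 at Ppp1r9a, 22.2 at Jade1, -13.5 at Gnas, 4.07 at Trappc9 and 0.0977 at Cdh15. At Jade1 and Gnas that gap was larger than the knockdown difference.

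Among 2871 clusters of at least 3 sites, those with levels most like Mest over the 6 libraries were a cluster in no gene at chr9:44238858-44239012 (mean absolute difference 3.31 points), Adam32 (3.38) and Fzd10os (3.55). The most like Nnat were Btbd1 (4.01 points), a cluster in no gene at chr10:115806149-115806293 (4.06) and Clec18a (4.42). None of these genes is on the list of imprinted genes. This is a description of likeness over 6 libraries, chosen from many clusters, with no test.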

How the data were processed

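Reduced representation bisulfite libraries were made with a double-enzyme digest, per the labels' protocols, and processed with cutadapt, Trim Galore and BSMAP 2.73 on mm10, per the submitters' processing notes. The sources used here do not give settings, the methylation caller or the test behind the authors' values. Per the file headers, the authors deposited methylated, unmethylated and total read counts per site and strand, and a p-value and q-value for each group against wild type. The deposited fraction of methylated reads was recomputed from the counts. The sequence context of a site is not named in the headers. No label explains the last digit of a rescue column's name.

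Median depth per site was 10 to 22 reads in the 6 libraries of the rescue table and 10 to 16 in the 3 of the knockdown table. Gene means are unweighted over sites; groups of 2 are given as mean ± SD. No label states separate cultures for a group's libraries, so the p-values reflect a spread that may be technical. A chi-square of reads averaged 2.85 per site for the wild-type pair and 2.17 for the Uhrf1-/- pair, so neither pair was 1 library deposited in duplicate.

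Uhrf1-/- was tested against wild type with edgeR 4.0.16 (quasi-likelihood, R 4.3.3), fitted on all 18189 sites and all 6 libraries with a library term, and on reads summed over clusters of sites at most 1000 bases apart. Calls needed a Benjamini-Hochberg adjusted p under 0.05 over the whole table and 20 points. An exact permutation of 2 against 2 libraries cannot go below p = 0.333 and was not used. Groups of 1 library were compared by size (20 points) only. Alternatives were 10 reads, 10 or 30 points, limma 3.58.1, only the 4 libraries compared, a replicate block, gaps of 300 bases, pooled reads, and leaving out each replicate. The fit was first tested on simulated data. Python 3.11.15, pandas 2.3.3, scipy 1.17.1, numpy 2.4.6 and matplotlib 3.10.9 did the rest.

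The 3 genes and the imprinted gene list were chosen with earlier results of these data known. Every site in the 3 windows is reported; listed genes with at least 3 sites, and the 3 clusters most like Mest and Nnat, are named. Copg2 was named after its values were seen. Of the 61 other listed genes, 60 matched RefSeq.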

Additional observations from a re-analysis of the deposited data

How the results depend on the processing

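For Uhrf1-/- against wild type, edgeR called 0 of 4 sites and 0 of 2 clusters under each alternative that could be run, and limma called 1 cluster, Mest. Over those alternatives the adjusted p ran from 0.105 to 0.889 at single sites and from 0.0363 to 0.388 for the clusters. Deviations of same-numbered libraries had a correlation of 0.00318 over 18189 sites. With few reads per site and a Uhrf1-/- mean of 9.59%, this cannot decide whether the replicate numbers pair the libraries. With the number as a replicate block, edgeR called 0 sites and 0 clusters of these genes, and 33 single sites against 4459 over the table. A minimum of 10 reads left 3682 sites tested, of which 1544 (41.9%) were called lower, beside 30.4% as reported. Over the table the edgeR site calls were 2719 and 400 without the first or second wild-type library and 0 without either Uhrf1-/- library (3853 and 4334 at an unadjusted p under 0.05), against 6291 with limma and 1544 at 10 reads. Cluster calls fell from 3442 to 1471 without the second wild-type library and to 0 without either Uhrf1-/- library (2547 and 2716 lower at an unadjusted p under 0.05).

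A minimum of 10 reads per library left fewer sites to count: for the wild-type rescue against Uhrf1-/- 1 of 1 was higher (4 of 4 as reported; 61.0% of all sites at that depth), for the 3KR rescue against the wild-type rescue 1 of 1 was lower (4 of 4; 57% of all sites), 0 of 1 higher than wild type with wild-type UHRF1 (1 of 4), and 2 of 3 lower and 0 of 3 higher in the knockdown (6 and 1 of 13; 21.2% lower). No Mest, Nnat or Meg3 site had 10 reads in every library for Uhrf1-/- against wild type or the 3KR rescue against Uhrf1-/-. With borrowed spread, edgeR called none of these sites in any of these single-library comparisons, and few or no sites over the whole table. At 30 points the 3KR rescue had 0 sites lower than Uhrf1-/- (1 as reported, 1.71% of all sites at 30 points). The wild-type rescue had 0 higher than wild type (1 as reported, 6.43%) and the knockdown 0 higher (1 as reported, 3.65%). Also at 30 points, the wild-type rescue was higher than Uhrf1-/- at 3 of 4 sites (4 of 4 as reported, 54.3% of all sites). The knockdown was lower at 5 of 13 (6 as reported, 17.4%). At 10 points the 3KR rescue had 1 site higher than Uhrf1-/- (0 as reported, 28.7% of all sites at 10 points). The knockdown had 3 higher (1 as reported, 14.8%).

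Leaving out 1 library gave 0 to 1 sites higher in the 3KR rescue than in Uhrf1-/- (1 without Uhrf1-/- library 2), 0 to 1 lower than wild type with wild-type UHRF1 (1 without wild-type library 1), and 5 to 6 lower and 1 to 3 higher in the knockdown (3 without wild-type library 2). Without Uhrf1-/- library 1 the wild-type rescue was higher than Uhrf1-/- at 3 of 4 sites, against 59.7% of all sites. Of the gene means, the Mest gain in the wild-type rescue was 24.2 points at 10 reads, where site 2 alone was left with its own value unchanged, and the Nnat difference in the knockdown was -33.3 points at 10 reads, where 3 of 4 sites were left. The Meg3 difference was -22.0 points on pooled reads. Over 12 mean differences under 40 combinations with a setting, 29 kept their sign and stayed within 1.5 times. Apart from both values at 10 reads, the others were the comparisons of the 3KR rescue with Uhrf1-/- and of the wild-type rescue with wild type, given with the results, and Nnat in the knockdown without wild-type library 2 (-12.6 points). Wild-type depth was 6 or 7 reads per site at Mest and 5 to 8 at Meg3 in the first library, and each single-library group adds the lack of a replicate.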
